A study of Mus musculus with 6 samples.

Results

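Transcripts of 10 genes that move chloride, bicarbonate, sodium and water across the intestinal epithelium, or that belong to the guanylin system which regulates this movement, were followed in mouse intestinal cells by RNA-seq of 6 libraries. The genes were chosen by name as Guca2a, Guca2b, Gucy2c, Cftr, Slc26a3, Slc26a6, Slc9a3, Slc4a4, Car4 and Aqp8, and each had its own row among the 23845 genes of the count table. There were 3 groups of 2 libraries. The first held cells isolated by flow sorting for Neurog3 expression from C57BL6 mice of genotype Neurog3+/-EGFP, with 1 Neurog3 allele (EGFP cells). The second held cells isolated in the same way from mice of mixed C57BL6 and CD1 strain and genotype Neurog3+/+EYFP, with 2 alleles (EYFP cells). Wild-type C57BL6 epithelium, whose titles begin with Duod and which is not described as sorted, was the third. The sources used here do not give age, sex, sorting gates, the gut segment behind the sorted cells, or whether libraries came from separate or pooled animals, so the p-values below measure only the spread between these libraries. Neurog3 is a transcription factor needed for the formation of hormone-producing enteroendocrine cells, and the series asks what its gene dosage does.

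Guanylin and uroguanylin are small peptides released by the epithelium that bind the receptor guanylate cyclase C on the apical membrane and raise cyclic GMP. Cyclic GMP activates the kinase Prkg2, which opens the chloride channel CFTR and inhibits the sodium-hydrogen exchanger NHE3, so that salt and water stay in the lumen. Bicarbonate leaves the cell through apical exchangers, after entry by a basolateral cotransporter or production by carbonic anhydrases. Absorptive enterocytes, crypt cells, goblet cells and other secretory cells each express a different part of this set.

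Values are CPM, estimated counts scaled to a library total of 1000000 after TMM normalisation. Log2 fold changes are given with their standard error (SE), and adjusted p-values come from edgeR's quasi-likelihood test over 13935 genes, with 0.05 as the threshold. Total estimated counts ranged from 7938358 to 20589683 per library. All 7 epithelial markers examined (among them Epcam, Cdh1 and Vil1) had counts in every library. Their summed level was not equal, at 8026 and 8726 CPM in EGFP cells, 6290.4 and 6464 CPM in EYFP cells, and 11664 and 12979 CPM in wild type. The summed level of 11 enteroendocrine markers was 15186 and 21166 CPM in EGFP cells, 66404 and 63160.3 CPM in EYFP cells, and 674 and 817 CPM in wild type. Neurog3 stood at 119.5 and 179 CPM in EGFP, 563 and 348 CPM in EYFP and 6.0 and 6.39 CPM in wild type. The female-specific transcript Xist was abundant in both EGFP libraries and in wild-type replicate 2, at 726 to 969 CPM, and did not exceed 2.38 CPM in the other libraries. Allele number, strain, reporter and sex-linked transcripts therefore cannot be told apart between EYFP and EGFP cells. In both comparisons with wild type, genotype, reporter and the sorting described cannot be told apart either, nor can strain for EYFP cells.

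Guca2a (guanylin) and Guca2b (uroguanylin) are neighbours on mouse chromosome 4. Guca2a lies on the plus strand at chr4:119637704-119639471 and Guca2b on the minus strand at chr4:119656607-119658954 (GENCODE M21, GRCm38, the same assembly as mm10). Their ends face each other across 17135 bases, and 0 annotated genes lie wholly inside that gap. The 200 bases before the outermost annotated start of each gene are shown because these adjacent genes had different patterns over the 3 groups. Both are from RefSeq (GRCm38.p6), read 5′ to 3′ toward the gene, at chr4:119637504-119637703 (plus strand) for Guca2a and chr4:119658955-119659154 (minus strand) for Guca2b. Capitals mark the only matches to the 3 motifs searched on both strands: an E-box of the kind bound by proneural factors (CAGATG), part of the HNF1 site (GTTAAT) and the TATA box (TATAAA), with no overlap between the motifs found.
Guca2a: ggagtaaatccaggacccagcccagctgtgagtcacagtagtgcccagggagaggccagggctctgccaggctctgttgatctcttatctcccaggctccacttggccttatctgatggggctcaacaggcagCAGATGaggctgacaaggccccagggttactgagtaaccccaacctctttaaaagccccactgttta
Guca2b: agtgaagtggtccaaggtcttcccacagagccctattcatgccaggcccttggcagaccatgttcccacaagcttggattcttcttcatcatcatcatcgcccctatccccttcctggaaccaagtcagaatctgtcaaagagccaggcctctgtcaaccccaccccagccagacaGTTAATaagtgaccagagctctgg
The Guca2a stretch held 1 CAGATG, from 67 to 62 bases before the start, and the Guca2b stretch held 1 GTTAAT, from 24 to 19 bases before the start. Over windows of 250 bases before 32851 RefSeq starts, 14.4% held CAGATG, 6.43% GTTAAT and 12.4% TATAAA. Among the 10 such windows listed for 9 of the 10 genes (Gucy2c had none), GTTAAT was present for Guca2b and Slc26a3, CAGATG for Guca2a, and TATAAA for Slc26a3. These are letter matches and do not show that a factor binds there.

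The 2 guanylin peptide genes differed in the group where each was highest, Guca2a in EGFP cells and Guca2b in wild type, and both were lowest in EYFP cells. Guca2a was measured at 881 and 835 CPM in EGFP cells, 6.13 and 11.4 CPM in EYFP cells, and 61.5 and 142 CPM in wild-type epithelium. Its libraries did not overlap between any 2 groups. It was 8.42-fold higher in EGFP cells than in wild type (log2 fold change 3.07 ± 0.46, edgeR adjusted p = 0.0029) and 11.7-fold lower in EYFP cells than in wild type (-3.55 ± 0.49, adjusted p = 0.0012). Between the sorted populations the difference was 98.6-fold, with EYFP cells lower (-6.62 ± 0.56, adjusted p = 0.00069). The wild-type libraries differed 2.31-fold from each other, and without wild-type replicate 2 the log2 values were 3.8 for EGFP and -2.83 for EYFP cells against wild type.

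Guca2b was measured at 100.2 and 108 CPM in EGFP cells, 8.39 and 18.2 CPM in EYFP cells, and 484 and 938 CPM in wild type. Here wild type was highest and EYFP cells lowest, again with no overlap. EGFP cells were 6.83-fold below wild type (log2 fold change -2.77 ± 0.45, edgeR adjusted p = 0.0039), and EYFP cells were 53.8-fold below it (-5.75 ± 0.52, adjusted p = 0.0002). EYFP cells were 7.88-fold below EGFP cells (-2.98 ± 0.47, adjusted p = 0.0051). Without EYFP replicate 2 these EYFP values were -6.41 and -3.64.

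Per kilobase of transcript, which allows the 2 genes to be compared, Guca2a exceeded Guca2b 8.96-fold and 7.88-fold in the EGFP libraries. In wild type the order was inverted, with Guca2b 7.72-fold and 6.48-fold above Guca2a. In EYFP cells both were low and Guca2b exceeded Guca2a 1.34-fold and 1.57-fold. Guca2a thus made up 90.0% and 88.7% of the sum of both transcripts in EGFP cells, 42.7% and 38.9% in EYFP cells, and 11.5% and 13.4% in wild type. The ranges of this ratio did not overlap between groups, and the ratio is given as a description. The smallest p of an exact two-sided permutation test of 2 against 2 libraries is 0.333.

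**Figure D1:**
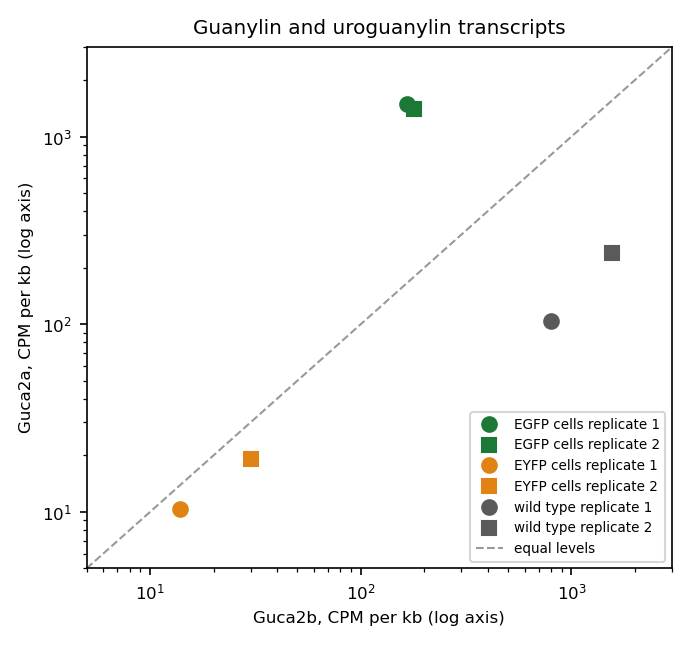
Level of Guca2a (vertical) against Guca2b (horizontal) in CPM per kilobase of transcript, both on log axes, with 1 point per library and a dashed line of equal levels. The EGFP libraries lie above the line near 1484 and 1406 for Guca2a, the wild-type libraries lie below it, and the EYFP libraries lie at the lower left just under it.

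Gucy2c encodes guanylate cyclase C, the receptor for both peptides. The gene lies on chromosome 6, minus strand, at chr6:136697284-136781765 (GENCODE M21, as for all positions here). Its level was 354 and 374 CPM in EGFP cells, 441 and 535 CPM in EYFP cells, and 454 and 565 CPM in wild type. The EGFP libraries were the lowest, and those of the other groups overlapped. No difference passed the test. EGFP cells against wild type had a log2 fold change of -0.48 ± 0.19 (edgeR adjusted p = 0.074), EYFP against EGFP cells had 0.42 ± 0.19 (adjusted p = 0.12), and EYFP cells against wild type had -0.06 ± 0.19 (adjusted p = 0.79), a value whose sign changed with the scaling (0.06 with DESeq2 size factors). The EYFP against EGFP difference passed with the DESeq2 Wald test (0.5, adjusted p = 0.03) and in a fit to only the 4 libraries compared (0.43, adjusted p = 0.048), and the authors' deposited table gives it an adjusted p of 0.0302. The EGFP against wild-type difference passed without wild-type replicate 1 (-0.63, adjusted p = 0.031). Among the 10 genes the fold of Gucy2c was the smallest in both comparisons with wild type.

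Cftr encodes the cyclic nucleotide-activated chloride and bicarbonate channel of the apical membrane. It lies at chr6:18170687-18322768 (plus strand). An antisense transcript, Gm15592, and a processed pseudogene on the same strand, Gm15595, are annotated within or across this span. Neither has a row in the count table. Whether counting used the strand is not stated and shared exon sequence was not examined, so whether their reads entered the Cftr counts is not known. Cftr stood at 110.1 and 77.8 CPM in EGFP cells, 29.7 and 40.6 CPM in EYFP cells, and 223 and 222 CPM in wild type. The groups did not overlap, with EYFP cells lowest and wild type highest. EGFP cells were 2.37-fold below wild type (log2 fold change -1.25 ± 0.21, edgeR adjusted p = 0.0025), EYFP cells 6.33-fold below wild type (-2.66 ± 0.22, adjusted p = 4.4e-05), and EYFP cells 2.67-fold below EGFP cells (-1.42 ± 0.22, adjusted p = 0.0024). Cftr had the smallest change of the genes that fell in either comparison with wild type.

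Slc26a3 and Slc26a6 encode apical exchangers of chloride for bicarbonate, the former also known as DRA and the latter as PAT1. They lie at chr12:31390871-31473917 and chr9:108853283-108913049, both on the plus strand. A processed pseudogene without a row, Gm9359, overlaps the span of Slc26a3 on the same strand. Slc26a3 stood at 21.8 and 20.6 CPM in EGFP cells, 6.63 and 13.3 CPM in EYFP cells, and 267 and 304 CPM in wild type. The groups did not overlap, and wild type stood far above both sorted populations. It was 13.5-fold lower in EGFP cells (-3.75 ± 0.31 on the log2 scale, edgeR adjusted p = 0.00016) and 28.9-fold lower in EYFP cells (-4.85 ± 0.32, adjusted p = 3e-05) than in wild type. EYFP cells also lay below EGFP cells (-1.10 ± 0.30, adjusted p = 0.028). This difference no longer passed when EGFP replicate 1 (-1.0, adjusted p = 0.15), EGFP replicate 2 (-1.14, adjusted p = 0.087) or EYFP replicate 1 (-0.67, adjusted p = 0.061) was left out. Slc26a6 was measured at 17.8 and 21.9 CPM in EGFP cells, 11.4 and 21 CPM in EYFP cells, and 314 and 525 CPM in wild type. The sorted populations overlapped for this gene (log2 fold change -0.30 ± 0.37, adjusted p = 0.56, and 0.08 without EYFP replicate 1), and both lay far below wild type. The fall was 21.1-fold in EGFP cells (-4.40 ± 0.40, adjusted p = 0.00035) and 26.0-fold in EYFP cells (-4.70 ± 0.40, adjusted p = 0.00014).

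Slc9a3 encodes NHE3, the apical exchanger through which absorptive cells take up sodium in return for protons. It lies at chr13:74121457-74169442 (plus strand). Levels were 5.79 and 5.07 CPM in EGFP cells, 1.27 and 2.78 CPM in EYFP cells, and 114 and 199 CPM in wild type. The sorted cells of both kinds held little of this transcript, and no groups overlapped. It fell 28.9-fold in EGFP cells (-4.85 ± 0.41 on the log2 scale, edgeR adjusted p = 0.00025) and 78.6-fold in EYFP cells (-6.30 ± 0.44, adjusted p = 5.7e-05; -6.94 without EYFP replicate 2). The latter was the largest fall among the 10 genes in EYFP cells against wild type. The EYFP libraries were both below the EGFP libraries (-1.44 ± 0.46), which did not pass (adjusted p = 0.052). This difference passed without EYFP replicate 2 (-2.09, adjusted p = 0.03), without wild-type replicate 1 or 2 (-1.45, adjusted p = 0.02), with the DESeq2 Wald test (-1.37, adjusted p = 0.0068) and in the fit to 4 libraries (-1.43, adjusted p = 0.042). The counts behind the EYFP values were 18 and 33.

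Slc4a4 encodes NBCe1, the sodium-bicarbonate cotransporter that loads cells with bicarbonate from the basolateral side. It lies at chr5:88886818-89239653 (plus strand). Slc4a4 stood at 31.5 and 30.7 CPM in EGFP cells, 11.2 and 15.7 CPM in EYFP cells, and 149 and 179 CPM in wild type. The 3 groups were separate and the replicates close. EGFP cells were 5.28-fold below wild type (log2 fold change -2.40 ± 0.19, edgeR adjusted p = 8.4e-05), EYFP cells 12.2-fold (-3.61 ± 0.20, adjusted p = 8.4e-06), and EYFP cells 2.32-fold below EGFP cells (-1.21 ± 0.19, adjusted p = 0.0028).

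Car4 encodes a carbonic anhydrase anchored to the outer face of the apical membrane. It lies at chr11:84957786-84966044 (plus strand). Levels were 64.2 and 55.4 CPM in EGFP cells, 8.03 and 13.0 CPM in EYFP cells, and 226 and 356 CPM in wild type. Each group was separate from the others, in the same order as for Guca2b. The fall from wild type was 4.87-fold in EGFP cells (-2.28 ± 0.29 on the log2 scale, edgeR adjusted p = 0.00097) and 27.8-fold in EYFP cells (-4.80 ± 0.33, adjusted p = 3.4e-05). EYFP cells were 5.71-fold below EGFP cells (-2.51 ± 0.31, adjusted p = 0.0015).

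Aqp8 encodes a water channel and lies at chr7:123462291-123468004 (plus strand). Its level was 61.0 and 33.9 CPM in wild type, 0.775 and 2.78 CPM in EYFP cells, and 0.423 CPM in EGFP replicate 2. EGFP replicate 1 held 0 counts, which allows up to 0.362 CPM (3 counts, counting error only), so the EGFP values rest on 5 counts in all. Both sorted populations were far below wild type, with log2 fold changes of -7.54 ± 0.89 in EGFP cells (edgeR adjusted p = 0.0011) and -4.77 ± 0.67 in EYFP cells (adjusted p = 0.0013). Without EGFP replicate 1 the EGFP value was -6.69, and without EGFP replicate 2 the wild-type level was at least 131-fold higher, taking EGFP replicate 1 at its floor of 3 counts. Without EYFP replicates 1 and 2 the EYFP values were -4.09 and -5.92. Aqp8 was the only one of the 10 genes with a positive difference of more than 1 between EYFP and EGFP cells (log2 fold change 2.77 ± 1.11), which did not pass (adjusted p = 0.1). The value was 1.62 without EYFP replicate 2, 2.07 without EGFP replicate 1 and 3.45 without EYFP replicate 1, where it passed (adjusted p = 0.048). Without EGFP replicate 2 the EYFP level was at least 4.91-fold higher, against the same floor.

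**Figure D2:**
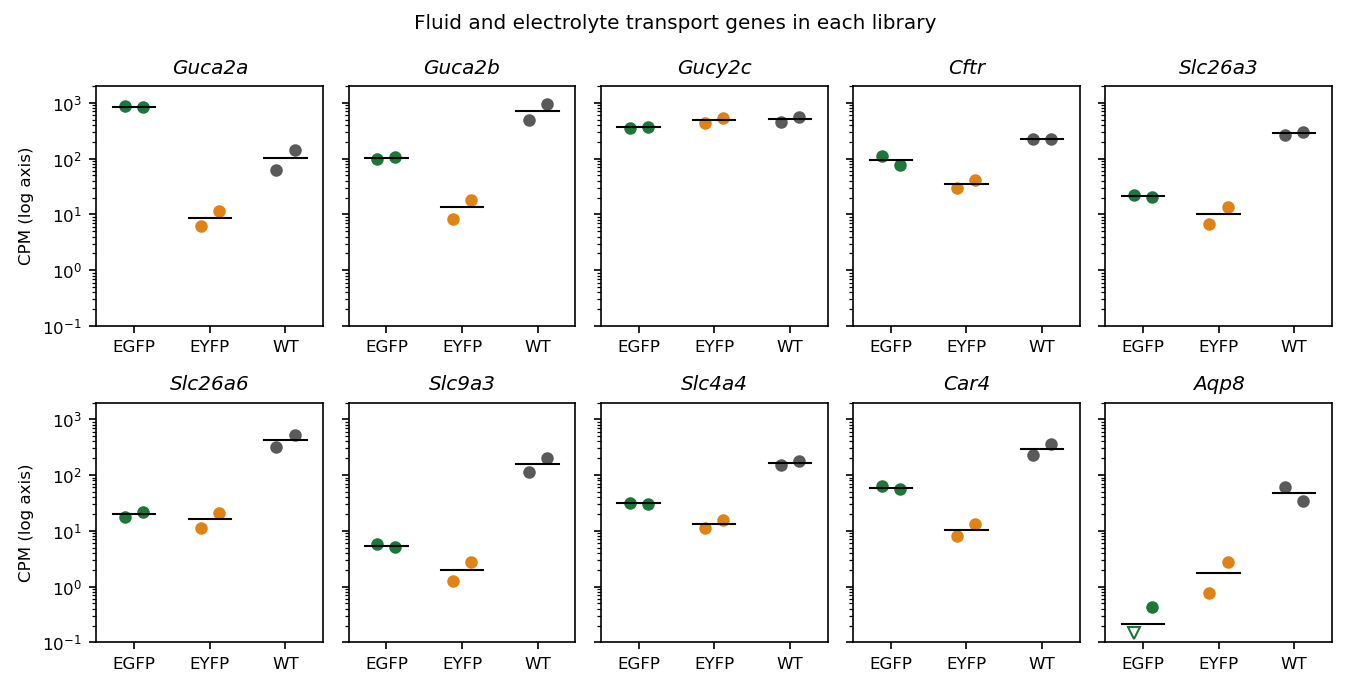
Level of each of the 10 genes in CPM (log axis) in the 2 libraries of EGFP cells, EYFP cells and wild type (WT), with a bar at the group mean. The open triangle near the foot of the Aqp8 panel stands for EGFP replicate 1 with 0 counts and is not at a measured height. Guca2a is highest in EGFP cells, Gucy2c differs little, and the other 8 genes are highest in wild type.

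Counted together, 8 of the 10 genes were lower and 1 (Guca2a) was higher in EGFP cells than in wild type, where 21.9% of all tested genes were lower, 19.6% higher and 41.5% either. In EYFP cells 9 of 10 were lower than in wild type and 0 were higher, where 33.5% of all genes were lower, 27.1% higher and 60.6% either. In EYFP against EGFP cells 6 of 10 were lower (Guca2a, Guca2b, Cftr, Slc26a3, Slc4a4 and Car4) and 0 were higher, where 19.4% of all genes were lower, 16.8% higher and 36.2% either. By library, both EGFP values lay below both wild-type values for 9 genes and above them for 1, against 36.2% and 35.0% of all genes. For EYFP cells against wild type the numbers were 9 and 0, against 45.0% and 37.0% of all genes. For EYFP against EGFP cells they were 7 and 2, against 36.9% and 37.3%. The median log2 fold change of the 10 genes was -2.59 for EGFP cells against wild type, -4.73 for EYFP cells against wild type and -1.32 for EYFP against EGFP cells. The medians of all genes were 0.0, -0.12 and 0.01. The comparisons share libraries, so their counts are not independent of each other. All 10 genes passed the filter on low counts, and Aqp8 did not reach its minimum within the EGFP libraries alone. The authors' deposited table calls the same genes as here in both comparisons with wild type, 9 and 9, and in EYFP against EGFP cells it calls the same 6 and Gucy2c.

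**Figure D3:**
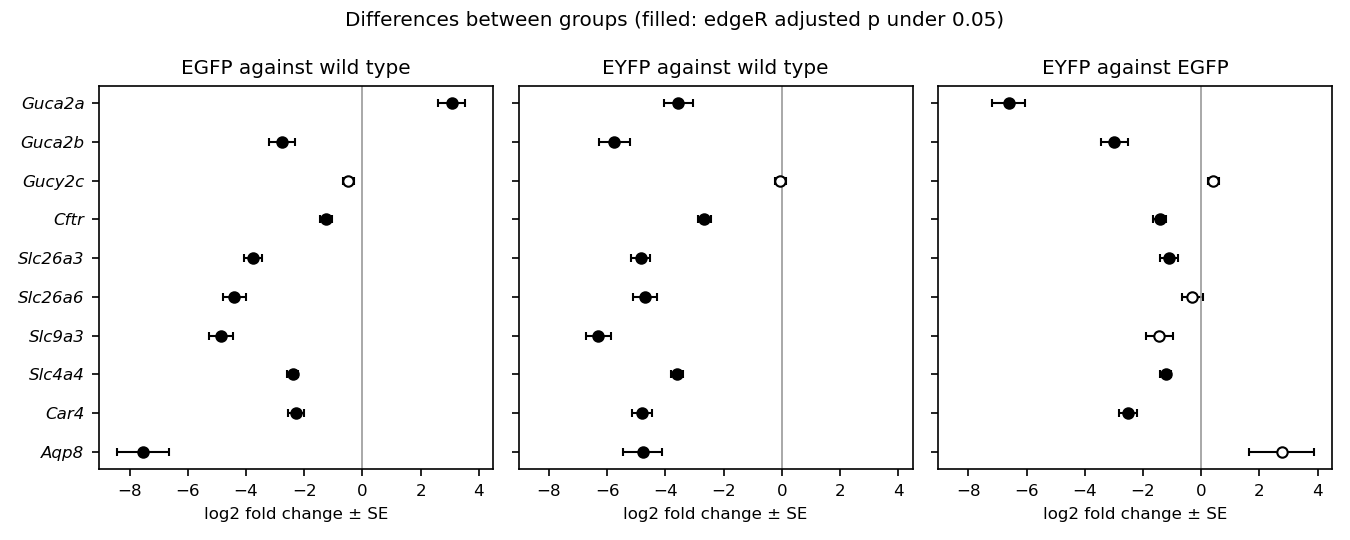
Log2 fold change with its SE for the 10 genes in the 3 comparisons, with filled points where the edgeR adjusted p was under 0.05 and a grey line at 0. Guca2a lies right of the line against wild type in EGFP cells, at 3.07, and left of it in EYFP cells, at -3.55, while Gucy2c stays within 0.48 of the line in each panel.

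The falls from wild type accompanied low levels of absorptive enterocyte markers. All 14 of these markers, such as Alpi, Apoa4 and Sis, were lower in EGFP and in EYFP cells than in wild type. They include Slc5a1, which is also counted in the sodium entry list below. Their summed level was 34281 and 59603 CPM in wild type, 1508 and 1914 CPM in EGFP cells and 1348 and 2251 CPM in EYFP cells, with 0 of the 14 at 0 counts in any library. Between EYFP and EGFP cells 1 of the 14 was lower and 0 were higher. The part of enterocyte RNA in the results on the 10 genes was not tested, and in bulk samples fewer cells of a type and less RNA per cell cannot be told apart. In each group replicate 2 had the higher enterocyte sum. Of the 10 genes, 4 were higher in replicate 2 in EGFP cells, 10 in EYFP cells and 8 in wild type, against 49.8%, 46.5% and 57.7% of all genes tested. Immune cell markers were also lower in the sorted cells, with 5 of 6 tested lower in EGFP and in EYFP cells than in wild type. Their summed level was 369.9 and 414 CPM in wild type, 11.0 and 56.1 CPM in EGFP cells, and 219 and 14.5 CPM in EYFP cells, where Lyz2 made up 207 CPM of replicate 1. Of the markers, Cd79a was at 0 in both EGFP libraries. The part of immune cell RNA in the results was not tested.

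Goblet cell markers followed another order. The summed level of 9 of them, among them Muc2, Tff3 and Spdef, was 64962 and 104536 CPM in EGFP cells, 708 and 1851 CPM in EYFP cells and 5710.1 and 7601 CPM in wild type, with none at 0. Of the 9, 8 were higher in EGFP cells than in wild type, 7 were lower in EYFP cells than in wild type, and 9 were lower in EYFP than in EGFP cells. Of the 10 genes, Guca2a alone had this order of group means. By summed level, tuft and Paneth cell markers were lowest in EYFP cells too, while the enteroendocrine markers given above were highest there. Tuft cell markers summed to 189 and 111 CPM in EGFP cells, 7.47 and 15.6 CPM in EYFP cells and 21.7 and 91.4 CPM in wild type, with 4 of 5 tested lower in EYFP than in EGFP cells and 1 or 2 of the 7 at 0 in the EYFP libraries and wild-type replicate 1. Paneth cell markers summed to 6956 and 7695 CPM, 407 and 203 CPM, and 5950 and 7634 CPM in the same order of groups, with 6 of 6 lower in EYFP than in EGFP cells and in EYFP cells than in wild type. Stem and cycling cell markers were lower in EYFP than in EGFP cells for 6 of 7. The part of RNA from goblet, tuft, Paneth or stem cells in the Guca2a values was not tested. Markers of distal intestine were low throughout. Of the 7 with a row, Car1, Hoxa13 and Hoxd13 were at 0 in every library and the summed level was 5.75 to 13.9 CPM. Aqp8, Slc26a3 and Car4 are also known from the colon.

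Profiles over the 6 libraries were compared after centring each gene on its mean log2 CPM, by the root mean square difference. This likeness is a description over 6 libraries that share their groups. Among the 10 genes the closest were Slc26a3 and Slc26a6 (0.40), then Guca2b and Car4 (0.44), and Cftr and Slc4a4 (0.52). Guca2a had no close partner, with Car4 the nearest of the set at 2.32. Among all tested genes with a standard symbol, the 3 nearest to Guca2a were Gfi1 (0.19), a transcription factor of secretory cells, Spink4 (0.21), a protein of goblet cells, and Spdef (0.22), a transcription factor of goblet cell maturation. Spink4 and Spdef belong to the goblet markers above. Spdef was measured at 276 and 248 CPM in EGFP cells, 1.76 and 3.45 CPM in EYFP cells, and 14.9 and 29.7 CPM in wild type. Nearest to Guca2b were Clec2h (0.26), Slc30a2 (0.29), a zinc transporter, and Apol10a (0.29). Nearest to Cftr were Chsy1 (0.06), a chondroitin synthase, Slc1a1 (0.09), a glutamate transporter, and Tns4 (0.11). Nearest to Gucy2c were Ubr3 (0.05), Spen (0.06) and Trappc9 (0.07), genes whose levels also varied little.

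**Figure D4:**
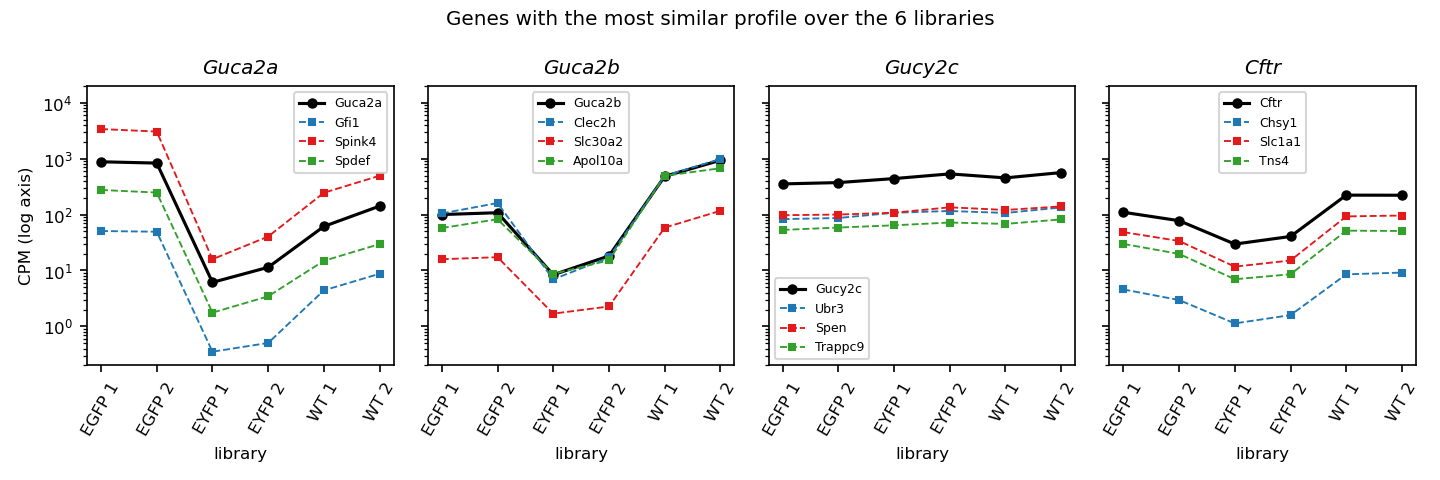
Level in CPM (log axis) over the 6 libraries of Guca2a, Guca2b, Gucy2c and Cftr (black) and of the 3 genes with the most similar profile to each (dashed). Spdef follows Guca2a from 276 CPM in EGFP replicate 1 to 1.76 CPM in EYFP replicate 1, and the genes nearest to Gucy2c stay almost level.

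Levels per kilobase, on the longest matching transcript, gave a different order of the 10 genes in each group. In EGFP cells Guca2a was first at a mean of 1445 CPM per kb, followed by Guca2b at 172, Gucy2c at 92, Car4 at 47.6 and Cftr at 14.9. In EYFP cells the receptor gene Gucy2c was first at 123 CPM per kb, followed by Guca2b at 21.9, Guca2a at 14.7 and Car4 at 8.36, and the libraries of Guca2b and Guca2a, of Guca2a and Car4, of Car4 and Slc26a6 and of Slc26a6 and Cftr overlapped. In wild type Guca2b was first at 1176 CPM per kb, above Car4 at 232, Guca2a at 171, Slc26a6 at 154 and Gucy2c at 129. Within these last 4, neighbours in the order overlapped. Last were Aqp8 in EGFP cells at 0.142, Slc9a3 in EYFP cells at 0.812 and Slc4a4 in wild type at 20.7 CPM per kb. The last place in EYFP cells was not resolved, because the libraries of Slc9a3 overlapped those of Aqp8, at a mean of 1.19. Those of Aqp8 and Slc4a4 overlapped there too. The transcript matched for Slc9a3 (2490 bases) holds almost only coding sequence, and those of Slc4a4 range from 3269 to 7931 bases, so the levels per kb of these genes depend on the model.

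Another 81 genes of epithelial ion and water transport, in 7 lists, were read from the same test, and 64 of them were tested. The comparisons are EGFP cells against wild type, EYFP cells against wild type, and EYFP against EGFP cells, in this order. Of all tested genes 19.6%, 27.1% and 16.8% were higher, 21.9%, 33.5% and 19.4% lower, and 41.5%, 60.6% and 36.2% either. These shares also stand beside the counts of each list below. Of the 64 genes 64.1%, 84.4% and 50.0% passed in either direction. The cyclic AMP and secretagogue list, at 46.7%, 73.3% and 40.0%, was nearer the shares of all genes in each comparison. Other lists were also near them in single comparisons. These were apical anion pathways at 44.4% in the first and carbonic anhydrases at 71.4% in the second. In the third they were guanylin and cyclic GMP at 40.0% and basolateral ion supply at 41.7%. Of the 64, 10 were higher and 31 lower in EGFP cells, and 10 higher and 44 lower in EYFP cells, against wild type. In EYFP against EGFP cells 8 were higher and 24 lower. Their medians were -0.50, -1.43 and -0.26 on the log2 scale. Without single libraries the last counts ranged from 2 to 8 higher and from 14 to 26 lower, with 2 and 14 without EGFP replicate 1, 3 and 15 without EYFP replicate 1, 4 and 19 without EGFP replicate 2, and 3 and 19 without EYFP replicate 2.

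Downstream of the guanylin receptor, Prkg2, the kinase that cyclic GMP activates, was measured at 30.3 and 24.5 CPM in EGFP cells, 28.5 and 43.2 CPM in EYFP cells, and 127 and 261 CPM in wild type. It fell in EGFP cells (log2 fold change -2.83 ± 0.40) and EYFP cells (-2.44 ± 0.39; -2.21 and -1.83 without wild-type replicate 2), edgeR adjusted p = 0.0023 and 0.0022. Pde5a, which degrades cyclic GMP, was lower in EYFP than in EGFP cells (-0.75 ± 0.15, adjusted p = 0.0072), which did not pass once EGFP replicate 1 (adjusted p = 0.074) or EYFP replicate 1 (adjusted p = 0.061) was removed. Abcc4 and Pde2a were higher in both sorted populations than in wild type. Abcc4, an exporter of cyclic nucleotides, was measured at 17.2 and 16.3 CPM in EGFP cells, 45.7 and 43.0 CPM in EYFP cells, and 2.02 and 3.47 CPM in wild type. It rose by 3.98 ± 0.27 in EYFP cells against wild type and by 1.40 ± 0.23 against EGFP cells. Pde2a, a phosphodiesterase that cyclic GMP stimulates, rose by 3.56 ± 0.41 in EGFP cells against wild type (4.4 without wild-type replicate 2). In EYFP against EGFP cells Pde2a had -0.77 ± 0.37, which did not pass (edgeR adjusted p = 0.16). In this list 3 of 5 tested genes were lower and 2 higher in each sorted population against wild type, and 1 was lower and 1 higher in EYFP against EGFP cells.

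Among other apical anion pathways, 3 of 9 tested genes were lower and 1 higher in EGFP cells against wild type, 8 lower and 1 higher in EYFP cells against wild type, and 6 lower and 0 higher in EYFP against EGFP cells. The sulfate transporter gene Slc26a2 was the gene that rose in both, by 1.04 ± 0.16 and 0.77 ± 0.16 on the log2 scale. Clca4a, of the calcium-activated chloride channel regulator family, had log2 fold changes of -5.73 ± 1.24 (edgeR adjusted p = 0.023) and -5.88 ± 1.22 (adjusted p = 0.014) against wild type in EGFP and EYFP cells. It stood at 21.5 CPM in wild-type replicate 1 and 150.5 CPM in replicate 2, and the values were -6.54 and -6.69 without replicate 1 and -3.71 and -3.88 without replicate 2. The EGFP difference did not pass with no filter on low counts (adjusted p = 0.073) or when EGFP replicate 1 or 2 (0.082 and 0.15) or EYFP replicate 1 or 2 (0.078 and 0.08) was removed, nor the EYFP difference when EYFP replicate 1 or 2 was (0.11 each). The gene now named Clca3a1, whose row is called Clca1, had the largest fall of this list between EYFP and EGFP cells (-2.75 ± 0.43; -3.52 without EYFP replicate 2). Reads of this family may be divided between near-identical copies, so its values are uncertain, as are those of the other Clca genes among the counts above.

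In sodium entry 6 of 10 tested genes were lower and 2 higher in EGFP cells against wild type, 8 lower and 0 higher in EYFP cells against wild type, and 3 lower and 2 higher in EYFP against EGFP cells. Scnn1a, the alpha subunit of the epithelial sodium channel, had the same order of groups as Guca2a. Scnn1a stood at 107 and 123 CPM in EGFP cells, 3.95 and 4.71 CPM in EYFP cells, and 17.7 and 22 CPM in wild type. It rose by 2.53 ± 0.18 in EGFP cells against wild type (edgeR adjusted p = 5.2e-05) and fell by 4.73 ± 0.20 in EYFP against EGFP cells (adjusted p = 6.9e-05). Pdzk1, a scaffold that binds apical transporters, had a log2 fold change of -4.48 ± 0.50 in EGFP cells against wild type (-3.89 without wild-type replicate 2), and the sodium-glucose cotransporter gene Slc5a1 had -4.02 ± 0.53 in EYFP cells (-3.06 without wild-type replicate 2). Slc9a2, an exchanger related to Slc9a3, was 1.02 ± 0.28 higher in EYFP than in EGFP cells (adjusted p = 0.03), but not once EGFP replicate 1 (0.73, adjusted p = 0.079), EYFP replicate 1 (adjusted p = 0.068) or EYFP replicate 2 (adjusted p = 0.13) was removed.

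Basolateral ion supply had 6 of 12 tested genes lower and 2 higher in EGFP cells against wild type, 8 lower and 2 higher in EYFP cells against wild type, and 4 lower and 1 higher in EYFP against EGFP cells. Kcnn4, a calcium-activated potassium channel, stood at 80.4 and 67.3 CPM in EGFP cells, 13.2 and 14.6 CPM in EYFP cells and 89.0 and 67.8 CPM in wild type, and fell by 2.41 ± 0.19 in EYFP against EGFP cells. Kcnk5, another potassium channel, had log2 fold changes of -2.44 ± 0.28 and -4.40 ± 0.31 against wild type in EGFP and EYFP cells (the latter -5.01 without EYFP replicate 2). Fxyd3, a regulator of the sodium pump, rose by 3.56 ± 0.22 and 3.61 ± 0.22. The potassium-chloride cotransporter gene Slc12a7 was 0.81 ± 0.17 higher in EYFP than in EGFP cells (edgeR adjusted p = 0.01), but not once EGFP replicate 1 (adjusted p = 0.059) or EYFP replicate 1 (adjusted p = 0.057) was removed.

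Of 7 other carbonic anhydrase genes tested, 3 were lower and 1 higher in EGFP cells against wild type, 4 lower and 1 higher in EYFP cells against wild type, and 4 lower and 1 higher in EYFP against EGFP cells. Car13, a cytosolic enzyme, had log2 fold changes of -2.53 ± 0.21 and -3.51 ± 0.22 against wild type in EGFP and EYFP cells. Car8, which lacks catalytic activity, rose by 3.30 ± 0.31 and 2.15 ± 0.30. Car9, a membrane enzyme, fell by 1.79 ± 0.14 in EYFP against EGFP cells. Car2, the abundant cytosolic enzyme of many epithelia, was 0.83 ± 0.18 higher there (edgeR adjusted p = 0.011), but not once EGFP replicate 2 or EYFP replicate 2 was removed (adjusted p = 0.072 each).

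Of 6 other aquaporin genes tested, 4 were lower and 1 higher in EGFP cells against wild type, 5 lower and 1 higher in EYFP cells against wild type, and 2 lower and 1 higher in EYFP against EGFP cells. Aqp3, which also passes glycerol, was measured at 0.603 and 0.593 CPM in EGFP cells, 0.423 and 1.52 CPM in EYFP cells, and 26.4 and 44.7 CPM in wild type. Its log2 fold changes against wild type were -5.88 ± 0.57 and -5.23 ± 0.52, the latter -4.55 and -6.37 without EYFP replicates 1 and 2. Aqp1, the water channel of many endothelia and epithelia, fell by 1.75 ± 0.20 in EYFP against EGFP cells. Aqp9 was the aquaporin gene that rose. Aqp9 stood at 2.65 and 6.34 CPM in EGFP cells, 10.3 and 18.7 CPM in EYFP cells, and 0.167 and 0.543 CPM in wild type, so that both sorted populations lay above wild type. Its log2 fold changes were 3.57 ± 0.68 and 5.23 ± 0.66 against wild type (edgeR adjusted p = 0.0049 and 0.00042), and 2.79 for EGFP cells without EGFP replicate 2. Without wild-type replicate 2 the wild-type level rests on 2 counts, and the ratio of levels was 28.9 for EGFP cells (exact 95% counting interval 7.8 to 242) and 84.7 for EYFP cells (23.3 to 702). Its rise in EYFP over EGFP cells (1.66 ± 0.52, adjusted p = 0.041) no longer passed when EGFP replicate 1 (1.25, adjusted p = 0.17) or EYFP replicate 2 (1.17, adjusted p = 0.21) was removed, and was 2.44 without EGFP replicate 2.

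Among 15 genes of the cyclic AMP and secretagogue pathways, 6 were lower and 1 higher in EGFP cells against wild type, 8 lower and 3 higher in EYFP cells against wild type, and 4 lower and 2 higher in EYFP against EGFP cells. Chrm3, the muscarinic acetylcholine receptor that drives chloride secretion, was measured at 10.9 and 9.81 CPM in EGFP cells, 23.9 and 16.8 CPM in EYFP cells, and 3.33 and 5.37 CPM in wild type. It was 2.21 ± 0.30 higher in EYFP cells than in wild type. EGFP cells were 1.23 ± 0.30 above wild type (edgeR adjusted p = 0.014), and without wild-type replicate 1 the value was 0.94 (adjusted p = 0.054). EYFP cells were 0.98 ± 0.29 above EGFP cells (adjusted p = 0.032), and this did not pass when the first EGFP (1.1, adjusted p = 0.093), second EGFP (0.9, adjusted p = 0.13) or first EYFP library (0.7, adjusted p = 0.2) was removed. Adora2b, an adenosine receptor, had log2 fold changes of -6.70 ± 1.03 in EYFP cells against wild type (-7.32 and -5.56 without wild-type replicates 1 and 2) and -3.90 ± 1.13 against EGFP cells (adjusted p = 0.04, and 0.13 with no filter on low counts; -2.73, -3.52 and -4.33 with adjusted p of 0.2, 0.19 and 0.15 when EGFP replicate 2, EYFP replicate 1 or EYFP replicate 2 was removed). Its EYFP libraries held 2 and 3 counts. Vipr2, a receptor of vasoactive intestinal peptide, had -3.01 ± 0.61 in EGFP cells against wild type (adjusted p = 0.0057; 0.054 and 0.055 without EGFP replicates 1 and 2), at no more than 2.14 CPM in any library.

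**Figure D5:**
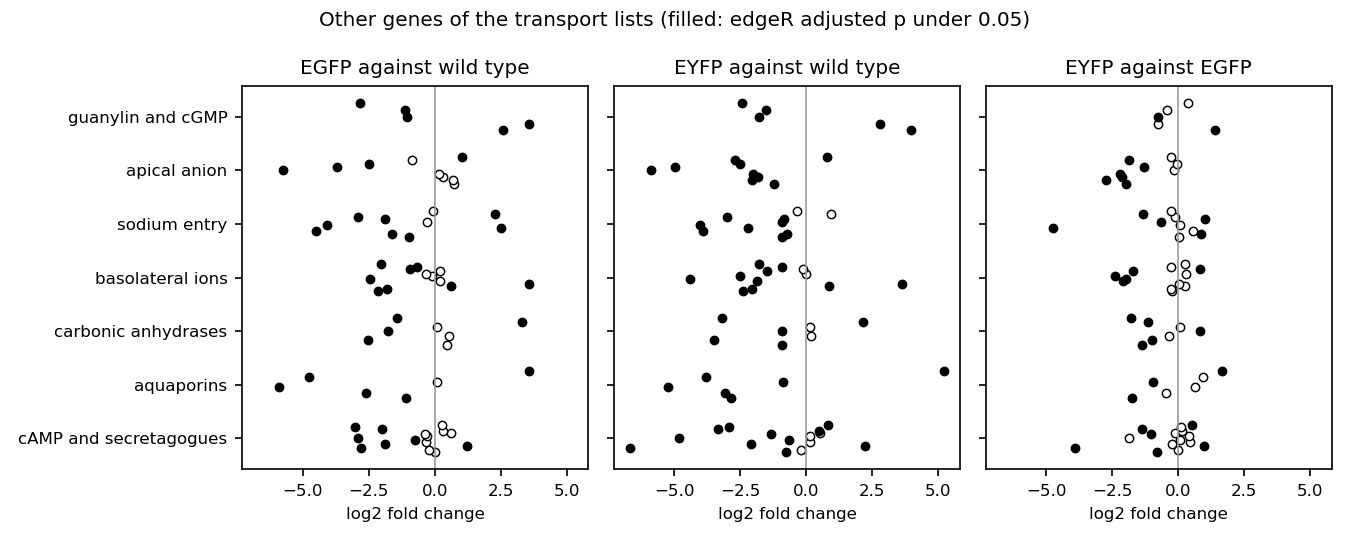
Log2 fold changes of the 64 other transport genes tested, by list, in the 3 comparisons, with 1 point per gene, filled where the edgeR adjusted p was under 0.05. Filled points lie mostly left of 0. From the left to the right panel 31, 44 and 24 genes were lower and 10, 10 and 8 higher. Of all tested genes 21.9%, 33.5% and 19.4% were lower and 19.6%, 27.1% and 16.8% higher.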

How the data were processed

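Gene-level estimated counts were deposited in 1 table. The authors' deposited comparison table holds, per the file headers, a linear fold and an adjusted p-value. Its deposited signal per library is, from the values, the count over 1 constant per library. RSEM 1.3.1, DESeq2 1.26.0, Bowtie2, FastQC 0.11.8 and the build mm10 are named per the submitters' processing notes, and the sources used here give neither their settings nor strandedness. Per the labels' protocols, TruSeq RNA libraries were read as single ends of 50 bases. Columns of EYFP libraries carry EGFP and addon in their names and were matched to the titles with addon.

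Estimated counts were rounded, filtered with filterByExpr (13935 genes, 58.4%), scaled by TMM and tested with edgeR 4.0.16 (quasi-likelihood, robust) in 1 model of 3 group means (3 residual degrees of freedom). P-values were adjusted by Benjamini-Hochberg over all genes tested; the code was tested on simulated data. SE values were derived from F. The named genes were the 10 chosen ones, the gene of each of 7 lists with the largest rise and fall past the test per comparison, and the 3 nearest profiles of 4 genes (prior count 2). The 10 genes, the lists and the markers were chosen with earlier results of these data known. List symbols were joined to rows by RefSeq accession where one matched, otherwise by symbol. Alternatives used DESeq2 1.42.0 size factors and its Wald test, other filters, fewer libraries and a replicate block.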

Additional observations from a re-analysis of the deposited data

How the results depend on the processing

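The numbers of the 10 genes past the test were within 1.5 times of the values reported in each direction under every alternative, except that 1 rather than 0 was higher in EYFP than in EGFP cells with the DESeq2 Wald test, in the fit to 4 libraries, and in the range of 0 to 1 when each library was left out. For the other transport genes in that comparison, leaving out each library gave 2 to 8 higher (8 with all) and 14 to 26 lower (24 with all). Of 389 alternative values of the 10 genes, 368 kept direction and side of the threshold, 3 lost a call (all of Slc26a3), 11 gained one and 7 changed sign, none of them a call. The changes of sign were Slc26a6 in EYFP against EGFP cells (0.08 without EYFP replicate 1, in a range of -0.81 to 0.08 when each library was left out) and Gucy2c in EYFP cells against wild type (0.06 with DESeq2 size factors and with the DESeq2 Wald test, 0.11 in the fit to 4 libraries, and 0.1, 0.07 and 0.1 without EGFP replicate 1, EYFP replicate 1 and wild-type replicate 2, in a range of -0.21 to 0.1). Of 520 values of the named list genes, 492 stayed and 28 lost a call. With DESeq2 size factors the median of all genes in EYFP cells against wild type moved from -0.12 to -0.01. Over all tested genes, deviations of equal replicate numbers correlated by 0.02, 0.10 and 0.01 between groups. Such a correlation cannot show whether libraries of equal number were paired or handled together. With the replicate block Slc9a3 passed between EYFP and EGFP cells (-1.46, adjusted p = 0.016) and Gucy2c between EGFP cells and wild type (-0.48, adjusted p = 0.039), and no call of the 10 genes was lost. With 2 libraries a group, a library left out leaves 1, which was assumed to vary like the others. Aqp8 in EGFP cells and Slc9a3 in EYFP cells rest on the fewest counts.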
